A study of Danio rerio with 6 samples.

Results

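Yap1 and Taz are the transcriptional co-activators at the end of the Hippo pathway, and the genes described here are these co-activators, their DNA-binding partners, their restraining kinases and scaffold, and the secreted matricellular proteins they are best known to induce. The genes were taken by exact name from a table of RNAseq values for sorted zebrafish retinal cells. Of 10 names, 9 had a row, among 27152 gene symbols in all: yap1, wwtr1, tead1a, ctgfa, cyr61, cyr61l1, lats1, lats2 and amotl2a. No row carries the name tead3b, so it was not analysed here. In the Hippo pathway the kinases Lats1 and Lats2 phosphorylate Yap and Taz, which keeps them in the cytoplasm, so that the activity of the co-activators depends on where the proteins are as well as on how much RNA is made. Unphosphorylated Yap and Taz enter the nucleus, bind Tead factors and turn on genes such as those for the secreted CCN proteins Ctgf and Cyr61, which act on matrix, integrins and growth factors outside the cell. In mouse retina Yap is known to be made by Müller glia (MG) and to be needed for their entry into the cell cycle after injury.

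The RNAseq compared GFP+ cells purified by FACS from adult retinas in 3 groups of 2 libraries each. The first group came from retinas with a needle poke injury and a morpholino (an antisense oligonucleotide) against apobec2a and apobec2b, collected at 2 days post injury (2 dpi), here apobec2 KD MG. The second came from injured retinas at 2 dpi without that morpholino, and the column names point to a control morpholino, here injured MG. The third came from uninjured retinas, here uninjured MG. The sample labels give gfap:GFP fish, in which a glial promoter drives GFP, for all 6 libraries, whereas the study's methods also name a second reporter line, in which GFP marks glia that respond to injury, as the source of injured cells. A change of reporter between uninjured and injured groups cannot be told apart from injury in these data. The same holds for morpholino delivery, which the column names give for both injured groups and not for the uninjured one. Libraries a and b below are the 2 of each group, and nothing states whether they came from separate fish, so each test measures the spread between these libraries, which may be technical.

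Levels are FPKM, the fragments of a gene scaled by the length of its transcript and by the mapped fragments of the library, so that genes can be compared. The FPKM of a library summed to between 946401 and 1171101, and read depth is not known from FPKM, so no counting error is given. All 8 MG markers examined were at 5 FPKM or more in all 6 libraries. Rod markers were also high, and rho, the rod opsin, was at 3200 to 3351 FPKM in apobec2 KD MG, 3369 to 4934 FPKM in injured MG and 7954 to 8087 FPKM in uninjured MG, so the sorted samples carried RNA of other retinal cells. In such bulk samples fewer cells of a type and less RNA per cell cannot be told apart. Of the targets of the morpholino, apobec2a was below 1 FPKM in every library. The row named APOBEC2 (2 of 2), not stated to be apobec2b, was at 16.8 and 15.8 FPKM in apobec2 KD MG. It was at 8.60 and 8.19 FPKM in injured MG and 1.12 and 0 FPKM in uninjured MG. The RNA thus does not show a knockdown. Protein was not measured in these data, so these levels do not tell whether the morpholino worked. Differences between groups were tested with limma on log2(FPKM + 1), with Benjamini-Hochberg adjustment over all genes tested, a threshold of 0.05 and 95% confidence intervals, and each fold change in log2 is on that scale, which understates changes of low genes.

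After injury 4 of the 9 genes rose, namely ctgfa, cyr61, tead1a and yap1, and 1 fell, amotl2a. Among all genes tested in this comparison 29.6% rose and 19.0% fell, so calls in both directions were common. The share of all genes whose libraries do not overlap between groups was not counted. A lack of overlap is therefore given below only as a description of the values. Quantile normalization moved the split of all calls, with 3795 genes higher and 4804 lower in injured MG in place of 4995 and 3206, and the 4 genes that rose were called higher under it as well. In the comparison of apobec2 KD MG with uninjured MG ctgfa, cyr61, tead1a and yap1 were again higher and none of the 9 was called lower, against 22.9% and 13.9% of all genes (3764 higher and 2286 lower, and 2949 and 3131 with quantile normalization). These comparisons share the uninjured libraries, and so are not independent. None of the 9 genes was called in limma's comparison of apobec2 KD MG with injured MG, where 3.14% of all genes rose and 6.23% fell (523 and 1039, and 737 and 850 with quantile normalization). There 1 of the 9, tead1a, had an unadjusted limma p under 0.05, against 6 in injured and 5 in apobec2 KD against uninjured MG. The share of all genes under that unadjusted p was not counted.

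**Figure D1:**
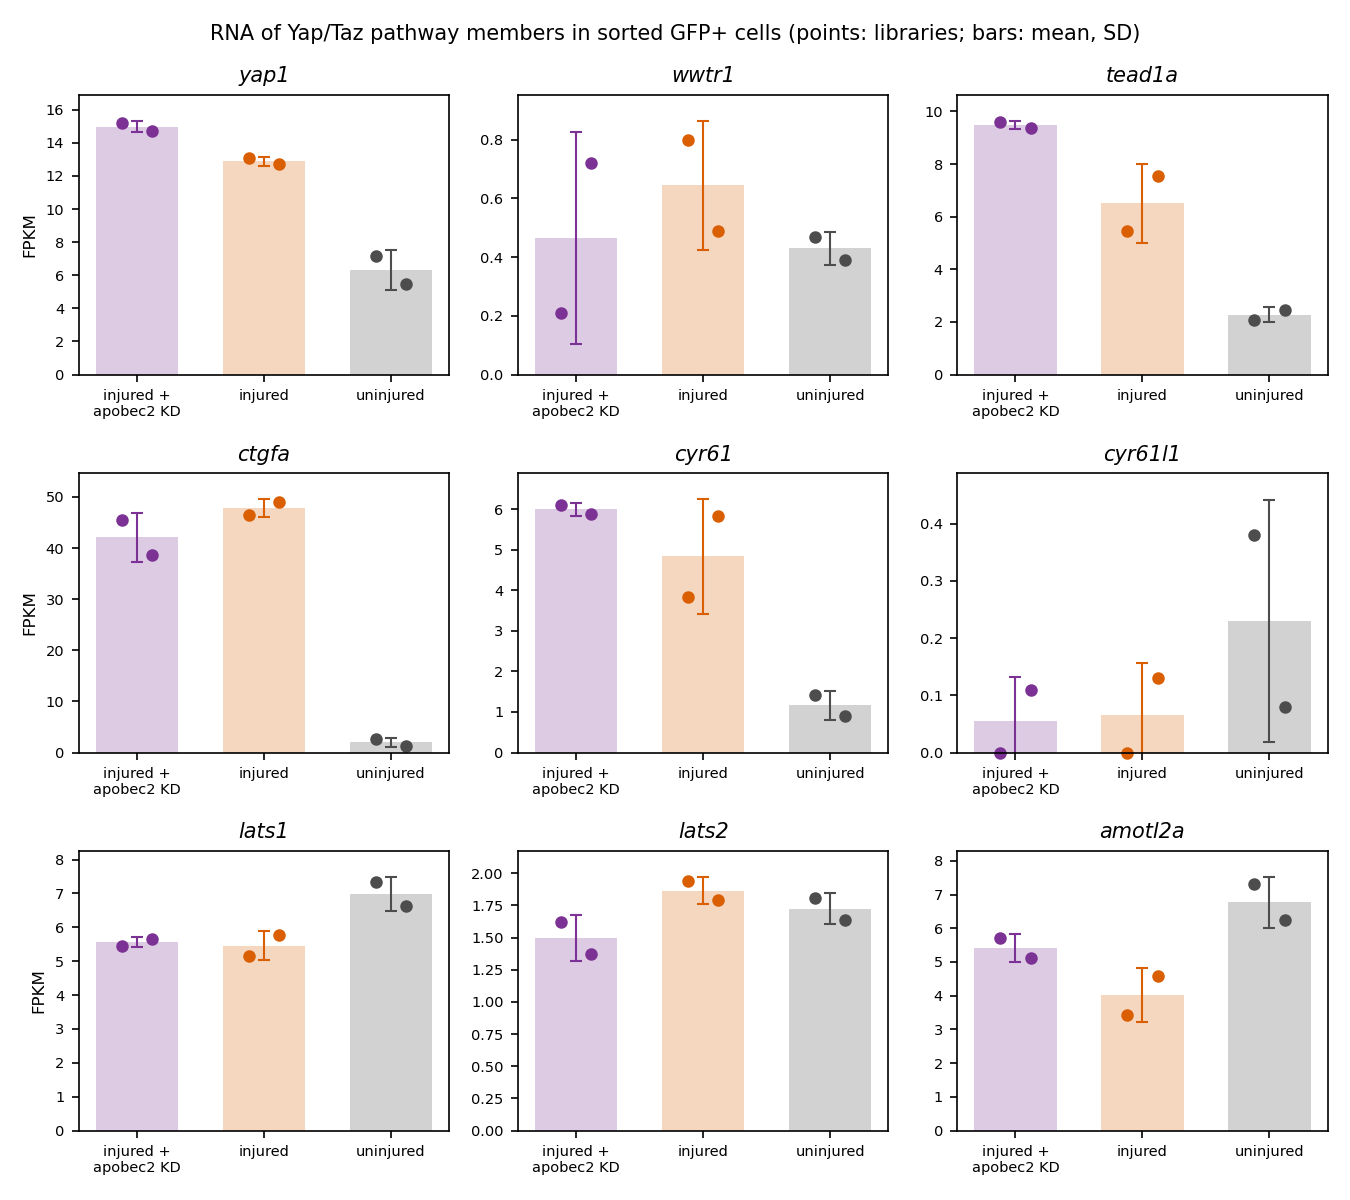
FPKM of the 9 genes in each library, 1 panel a gene with its own axis from 0, for apobec2 KD, injured and uninjured MG (points, libraries; bars, mean; error bars, SD, n = 2). In ctgfa, cyr61, tead1a and yap1 all 4 libraries of injured retinas lie above both uninjured libraries, and in wwtr1 and cyr61l1 every library lies below 1 FPKM. The share of all genes that separate in this way was not counted.

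The co-activator yap1 (chromosome 18, 35623600 to 35695502, as the table lists it, with a build not given in the sources used here) was at 15.2 and 14.7 FPKM in apobec2 KD MG, 13.1 and 12.7 FPKM in injured MG and 7.17 and 5.47 FPKM in uninjured MG. The 4 libraries from injured retinas were high and close together, and none of them reached down to the uninjured level. The mean in injured MG was 12.9 ± 0.255 FPKM and that in uninjured MG 6.32 ± 1.20 FPKM (SD, n = 2 each), a ratio of 2.04 and a log2 fold change of 0.93 (SE 0.146, limma adjusted p = 0.009054). The log2 difference between apobec2 KD MG and uninjured MG was 1.14 (limma adjusted p = 0.006527). The difference between apobec2 KD MG and injured MG was small, at 0.20 in log2 with a confidence interval of -0.06 to 0.46 (limma adjusted p = 0.2479). Without injured library a or b the injury call was lost (limma adjusted p = 0.05503 and 0.05146), and without apobec2 KD library a the other call was lost (limma adjusted p = 0.05224). The locus overlaps a row for a 5S ribosomal RNA, and how fragments there were assigned is not stated.

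The gene for Taz, wwtr1 (chromosome 22, 41007681 to 41073151), the paralogue of Yap, was at 0.21 and 0.72 FPKM in apobec2 KD MG, 0.80 and 0.49 FPKM in injured MG and 0.47 and 0.39 FPKM in uninjured MG. The apobec2 KD libraries overlap those of both other groups, both injured libraries lie just above both uninjured ones, and no library reached the 1 FPKM used as the filter, so the gene was kept in the fits only as one of the 9. The difference between injured and uninjured MG was 0.20 in log2, with an interval of -0.16 to 0.55 (limma adjusted p = 0.2777). Within a library yap1 exceeded wwtr1 by 72.5 and 20.5 times in apobec2 KD MG, 16.3 and 25.9 times in injured MG and 15.3 and 14.0 times in uninjured MG. Yap1 RNA was thus the more abundant of the pair in all 6 libraries, and the ratio of 72.5 came from the 1 library with wwtr1 at 0.21 FPKM.

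Among the Tead factors, which bind DNA for Yap and Taz, tead1a (chromosome 25, 16713138 to 16793062) was at 9.59 and 9.37 FPKM in apobec2 KD MG, 5.45 and 7.55 FPKM in injured MG and 2.09 and 2.47 FPKM in uninjured MG. The 3 groups do not overlap, and both apobec2 KD libraries lie above both injured libraries. The ratio of injured to uninjured means was 2.85, with a log2 fold change of 1.18 (SE 0.174, limma adjusted p = 0.00774), and the ratio of apobec2 KD to uninjured means was 4.16, with a log2 fold change of 1.68 (SE 0.112, limma adjusted p = 0.001618). The log2 difference between apobec2 KD MG and injured MG was 0.50, with an interval of 0.06 to 0.93 (limma adjusted p = 0.1299), and did not pass after adjustment. Injured library a was 0.722 times library b for this gene. The ratio of yap1 to tead1a was 1.59 and 1.57 in apobec2 KD MG, 2.40 and 1.68 in injured MG and 3.43 and 2.21 in uninjured MG, so that yap1 was above its partner in every library.

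The largest change of the 9 genes was that of ctgfa (chromosome 20, 25370420 to 25373097), which encodes the secreted connective tissue growth factor Ccn2. Its level was 45.5 and 38.7 FPKM in apobec2 KD MG, 46.6 and 49.1 FPKM in injured MG and 2.61 and 1.37 FPKM in uninjured MG. Both injured groups were well apart from uninjured MG, and the injured and apobec2 KD libraries do not overlap but lie close. The mean was 47.8 ± 1.78 FPKM in injured MG and 1.99 ± 0.877 FPKM in uninjured MG (SD, n = 2 each), a 24.03-fold ratio and a log2 fold change of 4.06 (interval 3.46 to 4.66, limma adjusted p = 9.454e-04). This log2 fold change was above that of 99.5% of the genes tested, and 89 genes had a larger one. Within the libraries ctgfa stood at the 93.7 and 94.0 percentiles of all symbols in injured MG and at the 53.9 and 46.2 percentiles in uninjured MG. In apobec2 KD MG the mean was 42.1 ± 4.84 FPKM (SD, n = 2), which was 3.88 above uninjured MG in log2 (limma adjusted p = 0.001425) and differed from injured MG by -0.18 in log2, with an interval of -0.52 to 0.15 (limma adjusted p = 0.3816).

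The CCN gene cyr61 (chromosome 23, 45832474 to 45838877), which encodes the secreted protein Ccn1, was at 6.11 and 5.88 FPKM in apobec2 KD MG, 3.84 and 5.84 FPKM in injured MG and 1.41 and 0.91 FPKM in uninjured MG. Every library from injured retinas was above both uninjured ones. The ratio of injured to uninjured means was 4.17 (log2 fold change 1.42, SE 0.222, limma adjusted p = 0.009003), and the ratio of apobec2 KD to uninjured means was 5.17 (log2 fold change 1.70, SE 0.148, limma adjusted p = 0.002549). The injured libraries spread more here than for yap1 or ctgfa, with library a 0.658 times library b. Between apobec2 KD and injured MG the log2 difference was 0.28, with an interval of -0.22 to 0.78 (limma adjusted p = 0.3805). Its mean of 4.84 FPKM in injured MG was under the 5 FPKM that the study's rule of 2-fold and above 5 FPKM requires, and in apobec2 KD MG it was over. By that rule yap1, tead1a and ctgfa were higher in injured MG, against 7.50% of all symbols, and the same 3 and cyr61 were higher in apobec2 KD MG than in uninjured MG, against 5.01%. These shares are 2036 and 1360 of all 27152 symbols, many of which are too low to meet the rule. With a group mean above 5 FPKM as the filter, 11330 and 10950 genes were fitted in these 2 comparisons. The calls for ctgfa, cyr61 and tead1a held in all 9 other settings and in all 4 fits that left out a library, in the comparison of injured with uninjured MG and in that of apobec2 KD with uninjured MG.

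The ratio of ctgfa to cyr61 within a library was 7.45 and 6.57 in apobec2 KD MG, 12.1 and 8.40 in injured MG and 1.85 and 1.51 in uninjured MG. It averaged 7.01 ± 0.617 in apobec2 KD MG, 10.3 ± 2.63 in injured MG and 1.68 ± 0.244 in uninjured MG (SD, n = 2 each). The ratio was higher in both injured groups than in uninjured MG without overlap, and 2 libraries against 2 cannot give a 2-sided exact permutation p under 0.33, so it is given as a description.

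The related gene cyr61l1 (chromosome 5, 34532218 to 34538047) was listed at 0 and 0.11 FPKM in apobec2 KD MG, 0 and 0.13 FPKM in injured MG and 0.38 and 0.08 FPKM in uninjured MG. It stayed under 1 FPKM throughout, and its groups overlap. The log2 difference between injured and uninjured MG was -0.20, with an interval of -0.63 to 0.23 (limma adjusted p = 0.3547). Of the 9 rows of CCN genes, ctgfa made up most of the summed level after injury. The sum was 58.1 and 52.6 FPKM in apobec2 KD MG, 57.7 and 61.7 FPKM in injured MG and 16.8 and 14.2 FPKM in uninjured MG. The share of ctgfa in this sum was 78.3% and 73.5% in apobec2 KD MG, 80.7% and 79.6% in injured MG and 15.5% and 9.63% in uninjured MG. Its closest relative ctgfb went the other way, at 2.60 and 4.32 FPKM in apobec2 KD MG, 1.72 and 2.34 FPKM in injured MG and 6.80 and 7.19 FPKM in uninjured MG (log2 fold change -1.41 after injury, limma adjusted p = 0.00274). Uninjured MG thus had more ctgfb than ctgfa, and injured and apobec2 KD MG more ctgfa than ctgfb. Because ctgfa and ctgfb are paralogues, fragments they share could have been assigned to either.

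**Figure D2:**
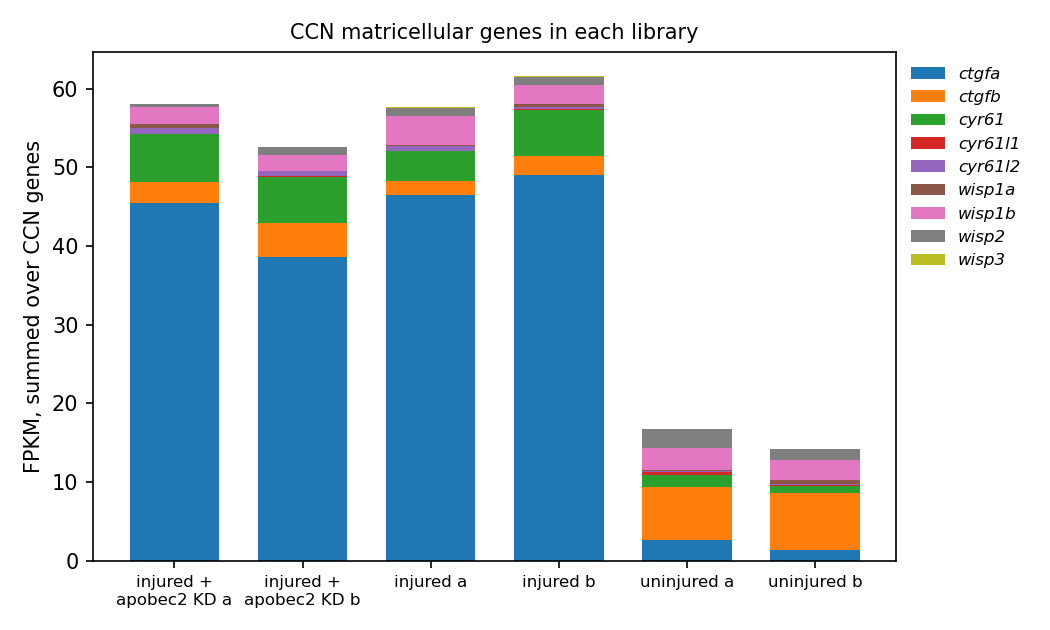
FPKM of the CCN genes in each library, drawn as stacked bars for apobec2 KD, injured and uninjured MG (a and b, the 2 libraries of a group). Ctgfa forms 73.5% to 80.7% of the sum in the libraries of injured retinas and 9.63% to 15.5% in uninjured MG.

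The kinases lats1 and lats2 and the scaffold amotl2a, which restrain Yap and Taz, showed smaller differences. The kinase gene lats1 (chromosome 20, 1264481 to 1292172) was at 5.46 and 5.66 FPKM in apobec2 KD MG, 5.16 and 5.76 FPKM in injured MG and 7.34 and 6.63 FPKM in uninjured MG. Every library of injured retinas lay below both uninjured ones, and the log2 difference between injured and uninjured MG was -0.31, with an interval of -0.60 to -0.01 (limma adjusted p = 0.08115). This did not pass the threshold as tested, but passed with quantile normalization (log2 -0.48, limma adjusted p = 0.02218) and with median of ratios scaling (log2 -0.39, limma adjusted p = 0.04246). These 2 scalings also moved the median log2 fold change of all genes, by -0.189 and -0.08. Between apobec2 KD and injured MG it differed by 0.02 in log2, with an interval of -0.26 to 0.31 (limma adjusted p = 0.901). The gene lats2 (chromosome 9, 22311190 to 22335865), which is also a Yap target, was at 1.62 and 1.37 FPKM in apobec2 KD MG, 1.94 and 1.79 FPKM in injured MG and 1.81 and 1.64 FPKM in uninjured MG. Its injured and uninjured groups overlap, and the log2 difference was 0.07, with an interval of -0.19 to 0.34 (limma adjusted p = 0.5774). Between apobec2 KD and injured MG the log2 difference of lats2 was -0.20, with an interval of -0.49 to 0.09 (limma adjusted p = 0.295). The ratio of lats1 to lats2 within a library was between 2.66 and 4.13.

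The scaffold gene amotl2a (chromosome 6, 27700170 to 27709318) encodes a member of the angiomotin family, which binds Yap at cell junctions, and is itself a Yap target in mammals. It was at 5.70 and 5.11 FPKM in apobec2 KD MG, 3.44 and 4.58 FPKM in injured MG and 7.30 and 6.24 FPKM in uninjured MG. The 3 groups do not overlap, with injured MG lowest and apobec2 KD MG between the others. Injured MG were at 0.592 times uninjured MG (log2 fold change -0.64, SE 0.158, limma adjusted p = 0.03085). The call was lost without injured library a (log2 -0.47), without uninjured library a (log2 -0.54) and without uninjured library b (log2 -0.74). The comparison of apobec2 KD MG with injured MG gave a log2 difference of 0.36, with an interval of -0.04 to 0.76 (limma adjusted p = 0.1923), and that with uninjured MG gave -0.28 (limma adjusted p = 0.1482).

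**Figure D3:**
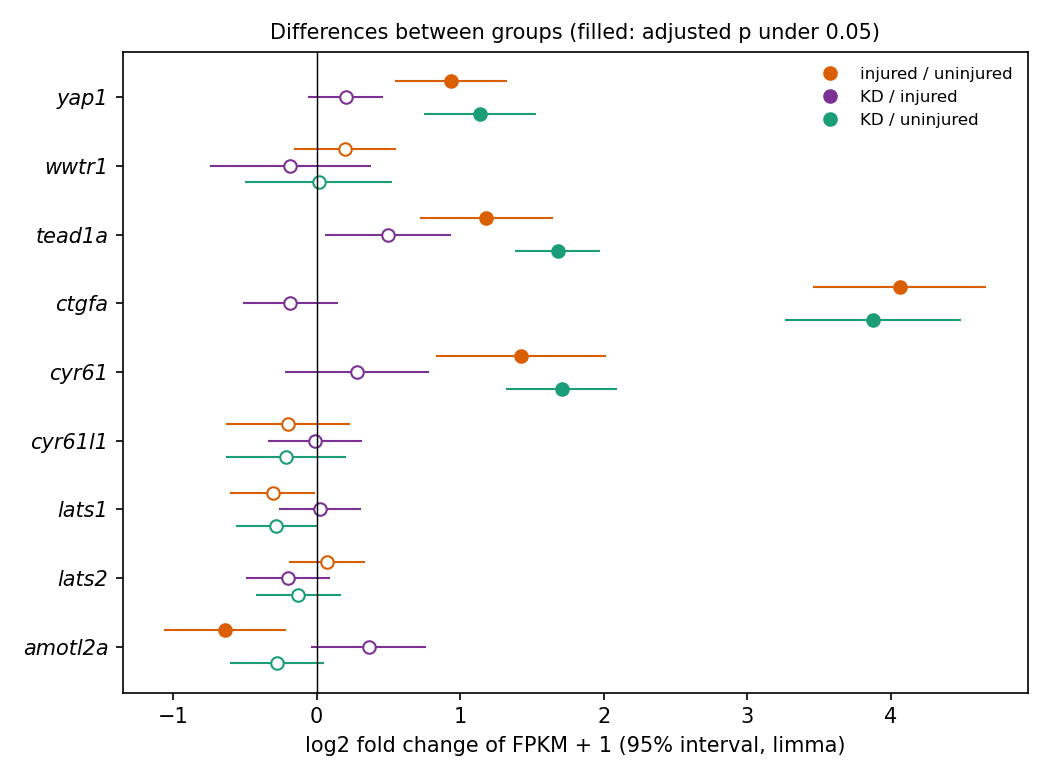
Log2 fold changes on log2(FPKM + 1) of the 9 genes in 3 comparisons of the groups (points, estimates; lines, 95% confidence intervals; filled points, limma adjusted p under 0.05). Ctgfa stands at 4.06 in injured against uninjured MG and 3.88 in apobec2 KD against uninjured MG, and no point is filled in apobec2 KD against injured MG.

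The order of the levels changed with injury. In uninjured MG lats1, amotl2a and yap1 were the highest of the 9, with overlapping libraries between 5.47 and 7.34 FPKM, and ctgfa was below 3 FPKM. In injured MG ctgfa was highest, yap1 was next without overlap, and tead1a, lats1 and cyr61 overlapped one another, with cyr61 also overlapping amotl2a. In apobec2 KD MG ctgfa, yap1, tead1a and cyr61 followed in that order without overlap, and lats1 and amotl2a overlapped below them.

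Other genes of the Hippo pathway moved in both directions. Of 39 named pathway genes 28 had a row, and 20 were tested after injury, of which 6 rose and 4 fell, with a median log2 fold change of 0.15 against 0.08 for all genes. These counts are near the shares of all genes tested, of which 29.6% rose and 19.0% fell. With quantile normalization 4 rose and 5 fell, and without a library 3 to 5 rose and 1 to 3 fell. This list includes yap1, tead1a and amotl2a. The gene with the largest rise was mob1a, which encodes an activator of the Lats kinases, at 10.4 and 10.6 FPKM in apobec2 KD MG, 22.2 and 23.1 FPKM in injured MG and 7.19 and 7.51 FPKM in uninjured MG. It was the highest in injured MG and was lower in apobec2 KD MG than in injured MG, and the log2 fold changes were 1.50 in injured against uninjured MG (limma adjusted p = 0.001181) and -1.04 in apobec2 KD against injured MG (limma adjusted p = 0.0104). The call between apobec2 KD and injured MG was lost without any 1 of the 4 libraries (limma adjusted p between 0.0637 and 0.0955). FAT4, a large atypical cadherin placed upstream of the pathway, was at 4.72 and 4.46 FPKM in apobec2 KD MG, 3.09 and 3.28 FPKM in injured MG and 6.49 and 7.42 FPKM in uninjured MG, and fell in injured MG (log2 fold change -0.93, limma adjusted p = 0.004333). The other calls after injury, named after their values were seen, were rises of taok3a, sav1 and ajuba and falls of WWC1 and mob1bb.

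In apobec2 KD MG against uninjured MG, 20 pathway genes were tested, 4 rose and 2 fell, and the median log2 fold change was -0.02 against 0.07 for all genes, of which 22.9% rose and 13.9% fell. With quantile normalization 3 rose and 3 fell, and without a library 2 to 3 rose and 0 fell. The kinase gene taok3a was at 14.5 and 14.9 FPKM in apobec2 KD MG, 13.3 and 12.4 FPKM in injured MG and 7.07 and 6.27 FPKM in uninjured MG, and rose in apobec2 KD MG (log2 fold change 1.04, limma adjusted p = 0.003924). The Lats activator gene mob1bb was at 33.5 and 29.8 FPKM in apobec2 KD MG, 32.9 and 27.0 FPKM in injured MG and 46.0 and 47.2 FPKM in uninjured MG, and fell in apobec2 KD MG (log2 fold change -0.55, limma adjusted p = 0.02185), a call lost without any 1 of the 4 libraries. Of 21 pathway genes tested between apobec2 KD and injured MG, mob1a was the 1 called, and it was lower. Of all genes tested in that comparison 3.14% rose and 6.23% fell, so 1 call of 21 is near the share of all genes.

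The Yap and Taz target genes, taken as zebrafish names of a mammalian signature, moved in both directions after injury. Of 33 named targets 28 had a row and 20 were tested, of which 9 rose and 4 fell (7 and 6 with quantile normalization), with a median log2 fold change of 0.38 against 0.08 for all genes, of which 29.6% rose and 19.0% fell. Without a library 6 to 7 targets rose and 1 to 3 fell. The list holds ctgfa and cyr61, which rose, and the 4 that fell were ctgfb, amotl2a, crim1 and FJX1, of which crim1 and FJX1 were named after their values were seen. Among the 20 are cyr61l1 and lats2, and cyr61l1 was tested only because it is one of the 9 genes. The target with the largest change was f3a, which encodes tissue factor, the trigger of blood clotting, at 99.9 and 82.0 FPKM in apobec2 KD MG, 56.1 and 55.7 FPKM in injured MG and 0.82 and 1.89 FPKM in uninjured MG. It rose after injury by a log2 fold change of 4.63 (SE 0.243, limma adjusted p = 8.463e-04) and was higher still in apobec2 KD MG, by a log2 fold change of 0.69 over injured MG (limma adjusted p = 0.04967). The ligand gene tgfb2 was at 11.5 and 14.2 FPKM in apobec2 KD MG, 11.1 and 11.4 FPKM in injured MG and 2.84 and 2.47 FPKM in uninjured MG, and rose after injury (log2 fold change 1.75, limma adjusted p = 0.001066). The growth factor binding protein gene igfbp3 was at 16.4 and 14.9 FPKM in apobec2 KD MG, 10.3 and 10.2 FPKM in injured MG and 2.29 and 3.14 FPKM in uninjured MG, and rose after injury (log2 fold change 1.61, limma adjusted p = 0.002296) and in apobec2 KD against injured MG (log2 fold change 0.56, limma adjusted p = 0.04655).

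Between apobec2 KD and injured MG f3a and igfbp3 were the 2 called of 20 targets tested, both higher in apobec2 KD MG. The median was 0.15 against -0.02 for all genes, of which 3.14% rose and 6.23% fell. Both calls lay close to the threshold and were lost without any 1 of the 4 libraries, with a pseudocount of 0.1, without the filter, with all 3 groups in the fit and with a replicate block. Of 20 targets tested in apobec2 KD against uninjured MG 8 rose and 2 fell, which were ctgfb and FJX1, with a median of 0.35 against 0.07 for all genes, of which 22.9% rose and 13.9% fell. Without a library 6 to 7 rose and 0 to 2 fell, and the fall of ctgfb was called in 1 of these 4 fits and in 7 of the 9 other settings.

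**Figure D4:**
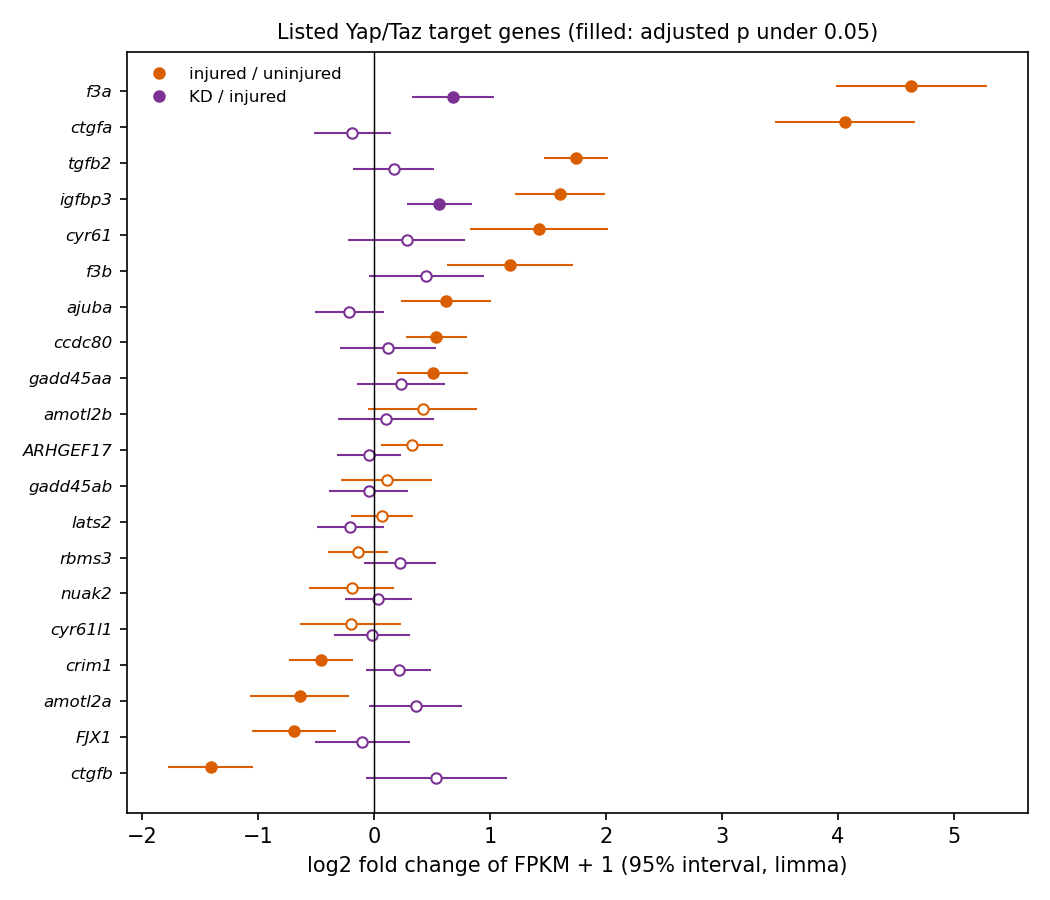
Log2 fold changes on log2(FPKM + 1) of the tested Yap and Taz target genes (filled points, limma adjusted p under 0.05) in apobec2 KD against injured MG and injured against uninjured MG. After injury 9 of 20 lie above 0 with filled points and 4 below, and f3a and ctgfa lie furthest to the right.

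The matricellular genes, secreted proteins that tune the matrix, moved in both directions. Of 26 named genes 24 had a row and 12 were tested after injury, of which 2 rose and 3 fell (2 and 7 with quantile normalization), with a median log2 fold change of -0.28 against 0.08 for all genes, of which 29.6% rose and 19.0% fell. The 2 that rose were ctgfa and cyr61, and ctgfb, tnr and postna fell, the last named after its values were seen. Tenascin R, tnr, an extracellular matrix glycoprotein of the nervous system, was at 9.79 and 7.07 FPKM in apobec2 KD MG, 7.63 and 7.19 FPKM in injured MG and 21.9 and 27.4 FPKM in uninjured MG (log2 fold change -1.60 in injured against uninjured MG, limma adjusted p = 0.002195). In apobec2 KD against uninjured MG 2 of 13 tested rose, again ctgfa and cyr61, and 4 fell, which were ctgfb, tnr, postna and sparc, the last also named after its values were seen, and the median was -0.21 against 0.07 for all genes, of which 22.9% rose and 13.9% fell. Without a library 1 to 3 fell. In apobec2 KD against injured MG 1 of 11 rose, thbs2b, a thrombospondin gene under 5 FPKM named after its values were seen, at 2.08 and 1.60 FPKM in apobec2 KD MG and 0.67 and 0.77 FPKM in injured MG (log2 fold change 0.72, limma adjusted p = 0.04198). The call was lost without any 1 of the 4 libraries, with the replicate block, without the filter and with a trend in the prior variance, and 3.14% of all genes rose in this comparison.

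By the smallest root mean square difference of centred log2(FPKM + 1) profiles over 6 libraries, among 11591 genes of at least 5 FPKM in a group mean, the profiles most like ctgfa were those of socs3a (0.0633), txn (0.0885) and mvp (0.1419). Of these socs3a, which encodes a feedback inhibitor of cytokine signalling, was at 84.4 and 75.8 FPKM in apobec2 KD MG, 90.9 and 85.4 FPKM in injured MG and 5.50 and 3.59 FPKM in uninjured MG. Like ctgfa, it was low in uninjured MG and high in the other 4 libraries. The profiles most like cyr61 were those of si:dkey-242h9.3 (0.1063), ATF5 (2 of 2) (0.1202) and si:dkey-92j12.6 (0.1261). All 6 points of such a profile share their libraries and mostly follow the step from uninjured to injured, and ranking by Pearson correlation kept 1 of the 3 genes for ctgfa and 0 of the 3 for cyr61.

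Markers of other cells that the sort could hold moved with injury and with the knockdown. Of all genes tested 29.6% rose and 19.0% fell after injury. In apobec2 KD against injured MG 3.14% rose and 6.23% fell, and against uninjured MG 22.9% and 13.9%. The summed level of 9 microglia or macrophage markers was 28.2 and 18.5 FPKM in apobec2 KD MG, 225 and 255 FPKM in injured MG and 72.2 and 63.3 FPKM in uninjured MG. After injury 7 of 9 were higher, and 9 of 9 were lower in apobec2 KD against injured MG. Most of the uninjured sum was cd74a, at 40.26 and 38.63 FPKM, and cd74b, at 21.65 and 15.89 FPKM. In apobec2 KD against uninjured MG these 2 of 8 tested were lower, and 3, coro1a, lcp1 and marco, were higher. The summed level of 5 pigment epithelium markers was 37.9 and 56.7 FPKM in apobec2 KD MG, 77.5 and 85.2 FPKM in injured MG and 7.72 and 6.78 FPKM in uninjured MG, and all 4 tested were higher after injury. Of these 4 pigment epithelium markers 2 were lower in apobec2 KD against injured MG. That of 9 mural cell and fibroblast markers was 33.2 and 34.9 FPKM in apobec2 KD MG, 25.5 and 35.4 FPKM in injured MG and 14.8 and 14.1 FPKM in uninjured MG, and 5 of 6 tested were higher after injury, with 0 of 7 called between apobec2 KD and injured MG. The summed level of 14 cell cycle genes was 121 and 108 FPKM in apobec2 KD MG, 245 and 274 FPKM in injured MG and 36.2 and 36.4 FPKM in uninjured MG, and all 14 were higher after injury, with 12 lower in apobec2 KD against injured MG. The 8 MG markers summed to 2135 and 2164 FPKM in apobec2 KD MG, 2373 and 2714 FPKM in injured MG and 2832 and 2968 FPKM in uninjured MG, with 3 higher and 5 lower after injury. The 3 higher were apoeb, gfap and glulb. Within these sums apoeb alone was at 942 and 926 FPKM in apobec2 KD MG. It was at 1478 and 1762 FPKM in injured MG and 571 and 631 FPKM in uninjured MG. The rise of apoeb offsets part of the fall of the 5 lower markers in these sums. Rod markers summed to 4258 and 5997 FPKM in injured MG and 11253 and 11515 FPKM in uninjured MG. Cone markers summed to 1684 and 1805 FPKM in injured MG and 2442 and 2303 FPKM in uninjured MG. In apobec2 KD MG the cone sums were 926 and 693 FPKM, with 5 of 6 markers lower than in injured MG. For inner retinal neurons the sums were 915 and 893 FPKM in injured MG and 1278 and 1304 FPKM in uninjured MG. Endothelium markers summed to 10.38 and 10.97 FPKM in injured MG and 13.19 and 13.85 FPKM in uninjured MG. Most of these sums was cdh5, at means of 7.76 FPKM in injured MG and 12.7 FPKM in uninjured MG. The low markers tie1 (1.43 against 0.035 FPKM) and fli1a (0.725 against 0.025 FPKM) had higher means in injured MG, and kdrl overlapped. In apobec2 KD MG rod markers summed to 4484 and 4314 FPKM, inner retinal neuron markers to 950 and 945 FPKM. Endothelium markers there summed to 11.01 and 10.11 FPKM. Against injured MG 0 of 7 rod, 0 of 6 inner retinal neuron and 1 of 2 endothelium markers were called, the last lower. No list had a gene at 0 in every library. The microglia, mural, pigment epithelium and cell cycle sums moved in the same direction as ctgfa, cyr61, tead1a and yap1 between injured and uninjured MG. The rod, cone, inner retinal neuron, endothelium and MG sums moved the other way, although 1 rod, 2 cone, 1 endothelium and 3 MG markers were called higher. The part of any of these lists in the result was not tested.

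**Figure D5:**
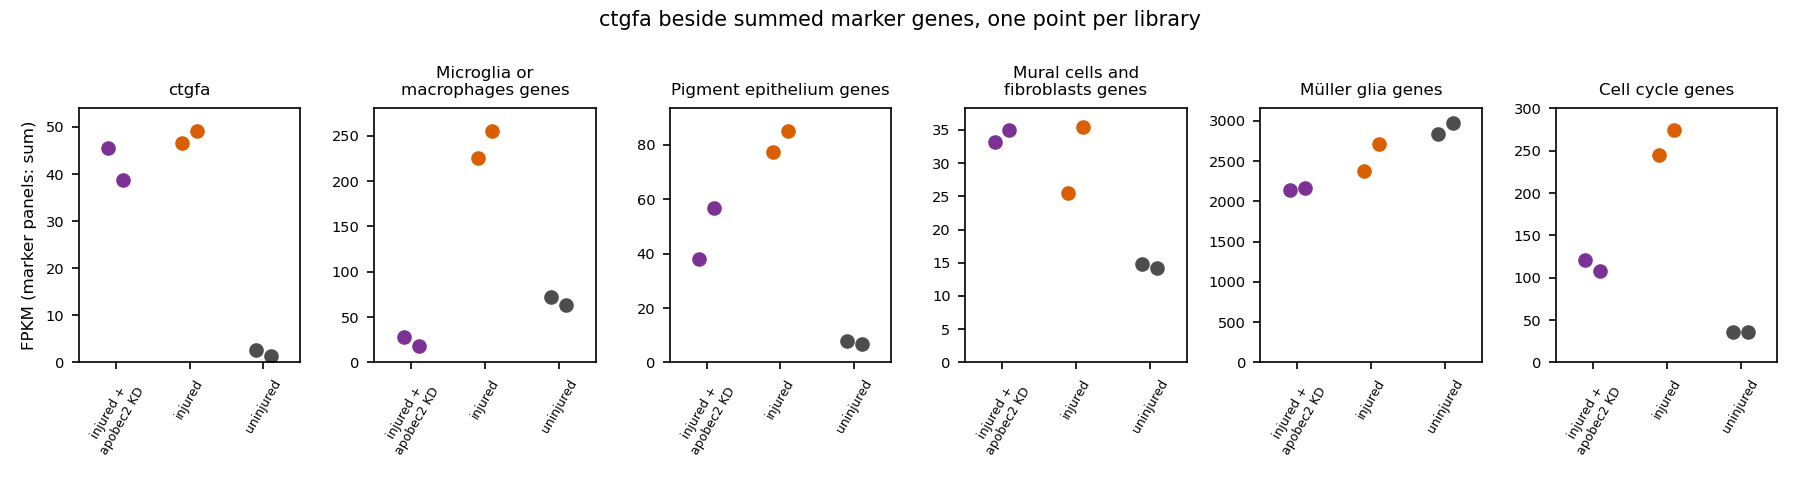
Summed FPKM of marker genes of microglia or macrophages, pigment epithelium, mural cells and fibroblasts, MG and the cell cycle, with the FPKM of ctgfa beside them. Points are the 6 libraries of apobec2 KD, injured and uninjured MG. The microglia, pigment epithelium, mural and cell cycle sums and ctgfa are all higher in injured than in uninjured MG. The microglia sum is lowest in apobec2 KD MG, at 28.2 and 18.5 FPKM. Against uninjured MG cd74a and cd74b were called lower there, and 3 other microglia markers higher.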

How the data were processed

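GFP+ cells from zebrafish retinas were profiled by RNAseq in 3 groups of 2 libraries, and groups were taken from the sample labels. The deposited values are FPKM by gene and by library, rounded to 0.01, in a table of 30689 gene rows that are repeated for the 3 pairings of the groups. The submitters' processing notes name CASAVA, TopHat and Bowtie2 without versions, and the column layout is that of Cuffdiff. Genome build and annotation are not given in the sources used here. The table also holds the authors' group means, fold changes, p-values and q-values, none of which was used. Another 6 columns, named as externally scaled fragments of single libraries, were left out, and no counting error was worked out from them. Column names give the group of a library and the table's own index but not the replicate number of the labels.

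Rows of a symbol were summed. Each comparison was fitted with limma 3.58.1 (lmFit, eBayes) in R 4.3.3 on log2(FPKM + 1) of its 4 libraries, for genes that reached 1 FPKM in 2 or more of these, with the 9 genes kept under any filter, Benjamini-Hochberg adjustment and a threshold of 0.05. Ratios were taken within libraries. Other steps used Python 3.11.15, pandas 2.3.3, NumPy 2.4.6 and Matplotlib 3.10.9.

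The genes described and the gene lists were chosen with earlier results of these data known. Besides the 9 genes, the rule for naming took, for each list and comparison, up to 4 called genes of at least 5 FPKM in a group mean with the largest absolute log2 fold change, and the 3 genes with profiles nearest to ctgfa and to cyr61. Listed names were matched to the table exactly or in capitals. Alternatives were a pseudocount of 0.1, quantile and median of ratios scaling, no filter, a group mean above 5 FPKM, limma's trend, all 3 groups in the fit, gene rows kept apart, a block by the table's index, and each library left out in turn.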

Additional observations from a re-analysis of the deposited data

How the results depend on the processing

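The rises of ctgfa, cyr61 and tead1a kept their direction and their side of the threshold under all 9 other settings and all 4 fits without a library, in injured and in apobec2 KD against uninjured MG, and the log2 fold change of ctgfa in injured against uninjured MG ran from 3.89 to 4.59 across settings and from 3.76 to 4.36 without a library. The number of the 9 genes called lower after injury was 1 as reported, 3 under quantile normalization, 2 under median of ratios scaling and 0 under the replicate block. Quantile normalization added lats1 and cyr61l1 to amotl2a. Of these cyr61l1, below 1 FPKM in every library, was just under the threshold (log2 -0.47, limma adjusted p = 0.04959). In apobec2 KD against uninjured MG the number called lower was 0, and 1 with quantile normalization (lats1, log2 -0.40). Over all genes, 3912 to 5492 were called in injured against uninjured MG without a library in place of 8201, and 2318 to 3475 in apobec2 KD against uninjured MG in place of 6050. In apobec2 KD against injured MG 1562 were called, and 1022 with a pseudocount of 0.1, 925 without the filter, 2355 with all 3 groups in the fit and 30 to 377 without a library, a fit in which the lone library is assumed to vary like the other group's. Of the matricellular genes tested after injury 3 fell, and 7 after quantile and 6 after median of ratios scaling. The quantile normalization moved the median log2 fold change of all genes by -0.189 in injured and by -0.12 in apobec2 KD against uninjured MG.

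Signs turned round only in values that were not called. In injured against uninjured MG quantile normalization gave -0.27 for wwtr1 and -0.15 for lats2. In apobec2 KD against injured MG it gave 0.079 for wwtr1 and 0.13 for cyr61l1, and without a library wwtr1 ran from -0.44 to 0.071, cyr61l1 from -0.10 to 0.075, lats1 from -0.043 to 0.091 and ATF5 (2 of 2) from -0.079 to 0.18. In apobec2 KD against uninjured MG wwtr1 was -0.068 with a pseudocount of 0.1, -0.24 when quantile normalized and -0.013 when scaled by the median of ratios, and ran from -0.24 to 0.27 without a library. The cause was not tested.

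How the table's index corresponds to the labels' replicate numbers is not stated. The deviations of libraries with the same index correlated at 0.0917, 0.0998 and 0.138 between groups, and no pairing was taken. The block by index left the fall of amotl2a after injury uncalled (limma adjusted p = 0.0574) and called 1129 genes in apobec2 KD against injured MG. Read depth is not known from FPKM, and wwtr1 and cyr61l1, below 1 FPKM, are the values that low expression limits most.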

Other observations

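Rows of Tead family genes other than tead1a, named here after their values were seen, were low. The row TEAD3 (2 of 2), which was not matched to the name tead3b, was at 2.41 and 2.23 FPKM in apobec2 KD MG, 1.24 and 1.99 FPKM in injured MG and 0.79 and 0.52 FPKM in uninjured MG. It lay in the same order of groups as tead1a, with a log2 fold change of 0.65 in injured against uninjured MG (limma adjusted p = 0.0449) and of 1.01 in apobec2 KD against uninjured MG (limma adjusted p = 0.00599). The first call lay close to the threshold, and neither was followed through the other settings or the fits without a library. The rows TEAD1 (1 of 2), tead1b, tead3a and TEAD4 were below 1 FPKM in all 6 libraries. The 6 Tead rows summed to 13.4 and 12.5 FPKM in apobec2 KD MG, 8.58 and 11.0 FPKM in injured MG and 5.19 and 4.97 FPKM in uninjured MG, and tead1a formed the greater part after injury. The row vgll4, which encodes a protein that competes with Yap for Tead factors, was at 6.51 and 7.74 FPKM in apobec2 KD MG, 6.27 and 9.52 FPKM in injured MG and 5.03 and 4.89 FPKM in uninjured MG. Its log2 fold change was 0.55 in injured against uninjured MG (limma adjusted p = 0.08316) and 0.44 in apobec2 KD against uninjured MG (limma adjusted p = 0.04658). The second passed close to the threshold and was not followed through the other settings.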
